A study of Mus musculus with 18 samples.

Results

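Meg3, Rian and Mirg are 3 long noncoding RNA genes that lie in a row on mouse chromosome 12, in the imprinted Dlk1-Dio3 region. They were taken by symbol from a table of 13218 loci measured in male germ cells, and each symbol stood on 1 row, so that all 3 members were found. Each passed the filter on low values, which kept 4117 loci that reached 1 FPKM in at least 3 libraries. FPKM is the number of fragments for each kilobase of a transcript, divided by the size of the library.

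The libraries came from testes of ICR mice, from which germ cells had been separated by STA-PUT, a sedimentation through a gradient that sorts cells mainly by size. The 6 labelled types were priSG-A from postnatal day 6, priSG-B from day 9, plpSC from day 14, pacSC from day 21, rST from day 35 and elST from day 56, with 3 libraries each. In this field SG, SC and ST usually mean spermatogonia, spermatocytes and spermatids, but the labels do not spell them out. No genotype, treatment, purity of the fractions or pooling of animals is named, and all groups share the strain and the tissue.

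Imprinted genes are read from the copy of 1 parent only. In the Dlk1-Dio3 region the maternal copy gives noncoding RNAs, among them Meg3, Rian and Mirg, and the paternal copy gives the coding genes Dlk1, Rtl1 and Dio3. The choice is set by a control region upstream of Meg3 that is methylated in sperm, so this mark is placed in the male germ line. Meg3 is a spliced nuclear RNA, Rian hosts small nucleolar RNAs of the box C/D class, and Mirg hosts a large group of microRNAs. The noncoding genes share 1 direction, and they have been described as parts of a long joint transcription unit that starts at Meg3.

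On the mm10 build, Meg3 (ENSMUSG00000021268.17) spans chr12:109541001-109571726 on the plus strand, and GENCODE M21 calls it a lincRNA. Rian (ENSMUSG00000097451.11) spans chr12:109603808-109661716 on the plus strand and is called a processed transcript. Mirg (ENSMUSG00000097391.8) spans chr12:109729764-109749460 on the plus strand and is called a lincRNA. From the start of Meg3 to the end of Mirg the stretch is 208 kb long, with gaps of 32.1 kb between Meg3 and Rian and of 68.0 kb between Rian and Mirg. M21 places 13 small nucleolar RNA genes inside Rian. The 3 genes have 11, 20 and 12 annotated transcripts, of 421 to 14548 bp for Meg3, 294 to 8089 bp for Rian and 360 to 3822 bp for Mirg, so the length behind each FPKM depends on which transcripts were assembled. Meg3 also shares exon sequence with Gm26906 on the other strand. The labels name a TruSeq RNA kit of a kind that usually keeps no strand, and no strand setting is stated, so the reads of that gene may not be separated from those of Meg3.

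The promoter windows of the 3 genes are shown because they differ in make-up although their genes lie in a row. They are RefSeq sequences of GRCm38.p6, plus strand, from 250 bases before to 50 bases after the annotated start. Capitals mark matches to TGACGTCA (the cyclic AMP response element), TATAAA (the TATA box) and CCAAT, searched on both strands. The Meg3 window is chr12:109540746-109541045, that of Rian is chr12:109603695-109603994, and that of Mirg is chr12:109734731-109735030.
Meg3: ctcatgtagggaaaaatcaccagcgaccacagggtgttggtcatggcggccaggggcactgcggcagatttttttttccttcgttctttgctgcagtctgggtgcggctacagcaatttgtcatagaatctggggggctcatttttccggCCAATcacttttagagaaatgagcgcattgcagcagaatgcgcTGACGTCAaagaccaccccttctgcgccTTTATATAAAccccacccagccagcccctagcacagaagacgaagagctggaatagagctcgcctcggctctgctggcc
Rian: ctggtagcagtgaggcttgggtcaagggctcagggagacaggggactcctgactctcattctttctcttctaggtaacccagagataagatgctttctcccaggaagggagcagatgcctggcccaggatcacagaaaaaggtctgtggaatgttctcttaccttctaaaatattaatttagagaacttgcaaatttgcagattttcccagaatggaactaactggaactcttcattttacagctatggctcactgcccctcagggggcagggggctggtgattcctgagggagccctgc
Mirg: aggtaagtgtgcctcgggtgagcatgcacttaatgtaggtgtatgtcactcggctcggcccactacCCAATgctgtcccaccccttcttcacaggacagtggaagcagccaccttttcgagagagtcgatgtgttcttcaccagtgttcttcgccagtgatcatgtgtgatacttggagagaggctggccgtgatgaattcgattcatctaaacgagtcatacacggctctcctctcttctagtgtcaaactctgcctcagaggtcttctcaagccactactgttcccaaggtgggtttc
In the Meg3 window TGACGTCA began at position -57 from the start, TATAAA at -25, and CCAAT at -100. A second TATAAA match, on the other strand at -29, overlaps the first and shares its run of capitals. The Rian window held none of these letters and no CpG, while the Meg3 window held 13 CpG and the Mirg window 10. The Mirg window held CCAAT at -184 and none of the others. Of 32851 RefSeq promoter windows of this length, 1.79% held TGACGTCA, 13.6% held TATAAA and 37.4% held CCAAT. The RefSeq start of Mirg lies 5217 bases inside the span that the table gives, among its microRNAs, and that of Rian lies 137 bases inside, so neither window need be at the start of the measured locus. A match is a run of letters and not a measured site.

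The microRNAs encoded within the genes are shown for the cargo that each host RNA carries. RefSeq lists 3 mature microRNAs from 2 genes inside Meg3, 6 from 3 genes inside Rian and 26 from 14 genes inside Mirg. Capitals mark the seed, bases 2 to 8, which pairs with target RNAs.
mmu-miR-770-5p: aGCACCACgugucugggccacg
mmu-miR-341-5p: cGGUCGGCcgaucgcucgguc
mmu-miR-370-3p: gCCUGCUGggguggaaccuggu
mmu-miR-134-5p: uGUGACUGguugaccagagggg
mmu-miR-410-3p: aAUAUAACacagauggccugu
mmu-miR-453: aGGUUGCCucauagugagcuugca
mmu-miR-496a-5p: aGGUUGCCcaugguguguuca
Meg3 holds miR-770, Rian holds miR-341 and miR-370, and Mirg holds the other 4. Among all 35 mature sequences only 1 seed occurred more than once, GGUUGCC, in miR-453 and miR-496a-5p of Mirg. The libraries measured the host RNAs, and mature microRNAs were not measured here.

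The libraries of a type were often unlike each other, and this bears on every comparison of types. Of the 18 pairs of libraries within a type, 11 had a Pearson's r below 0.8 over the tested loci, and the lowest was 0.03. For 13 of the 18 libraries the closest library carried another type label. From these profiles, 5 libraries were taken to stand apart from their type, namely replicate 3 of priSG-A, plpSC and pacSC and replicate 1 of rST and elST, and results are given with and without them. The locus AY036118, derived from ribosomal RNA, stood above 100 FPKM in 12 libraries and below it in 6, which were elST replicate 3, pacSC replicates 1 and 2, and every library of priSG-B. The labels name no batch. Depth, inferred from the steps in the FPKM values, was 31.6 to 92.3 M (mega) fragments. None of the 39 listed marker genes of germ and somatic cell types is in the table, which covers long noncoding loci, so the type labels were not checked against them. The labels do not tell whether the libraries of a type stem from different animals, and the p-values therefore reflect the spread between libraries alone, which may be technical.

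Meg3 varied widely, also between libraries of the same label. Its priSG-A libraries measured 18.9, 8.57 and 1.33 FPKM, in the order of replicates 1, 2 and 3, and its priSG-B libraries 2.24, 2.23 and 1.85 FPKM. The plpSC libraries measured 11.6, 6.66 and 0.947 FPKM and the pacSC libraries 0.877, 0.389 and 3.25 FPKM. Thus replicate 3 of priSG-A and of plpSC was low where its partners were high, and pacSC showed the reverse. The rST libraries held 2.99, 2.47 and 2.07 FPKM and the elST libraries 7.0, 1.76 and 0.409 FPKM. Means were 9.59 ± 8.81 FPKM (SD, n = 3 as for each type) in priSG-A, 2.11 ± 0.224 in priSG-B, 6.41 ± 5.35 in plpSC, 1.51 ± 1.53 in pacSC, 2.51 ± 0.459 in rST and 3.06 ± 3.48 in elST. By the mean of log2(FPKM + 1) the order was priSG-A, plpSC, rST, elST, priSG-B and pacSC, and the libraries of every pair of neighbours in this order overlapped.

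Rian, the host of the small nucleolar RNAs, was the most abundant of the 3 and the only member at 1 FPKM or more in all 18 libraries. Its priSG-A libraries measured 19.6, 16.5 and 2.27 FPKM, again in the order of replicates. The priSG-B libraries held 14.2, 14.3 and 14.4 FPKM, which made this type the most even of all. The plpSC libraries measured 8.32, 12.4 and 2.28 FPKM and the pacSC libraries 3.14, 3.54 and 4.41 FPKM. All plpSC libraries therefore lay below all priSG-B libraries. How many of all loci did so was not counted. All priSG-B libraries had AY036118 below 100 FPKM and all plpSC libraries above it, so type and AY036118 level cannot be told apart here. The rST libraries held 7.31, 2.96 and 2.95 FPKM and the elST libraries 13.9, 4.64 and 2.70 FPKM, with replicate 1 the highest in both. Means were 12.8 ± 9.26 FPKM in priSG-A, 14.3 ± 0.0957 in priSG-B, 7.68 ± 5.11 in plpSC, 3.7 ± 0.647 in pacSC, 4.41 ± 2.52 in rST and 7.08 ± 5.98 in elST. The order by mean log2 level was priSG-B, priSG-A, plpSC, elST, rST and pacSC, again with overlapping libraries between neighbours.

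Mirg, the microRNA host, was the least abundant and had another order of types. Its replicates 1, 2 and 3 measured 2.03, 1.45 and 0.407 FPKM for priSG-A, 1.27, 0.845 and 0.779 FPKM for priSG-B, and 0.563, 0.493 and 1.53 FPKM for plpSC. None of these 9 libraries exceeded 2.03 FPKM. For pacSC they measured 1.61, 1.11 and 4.36 FPKM, for rST 0.209, 3.19 and 3.94 FPKM, and for elST 0.647, 2.15 and 1.08 FPKM. The libraries that were low for Mirg in plpSC, rST and elST were those that were high for Rian in the same type. Means were 1.29 ± 0.821 FPKM in priSG-A, 0.965 ± 0.267 in priSG-B, 0.861 ± 0.578 in plpSC, 2.36 ± 1.75 in pacSC, 2.45 ± 1.97 in rST and 1.29 ± 0.771 in elST. The order by mean log2 level was pacSC, rST, elST, priSG-A, priSG-B and plpSC, and neighbours overlapped. The fewest fragments were behind Mirg in rST replicate 1, about 8.0 per kilobase of transcript by the inferred depth, against up to 1319 for Rian in priSG-B replicate 2.

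**Figure D1:**
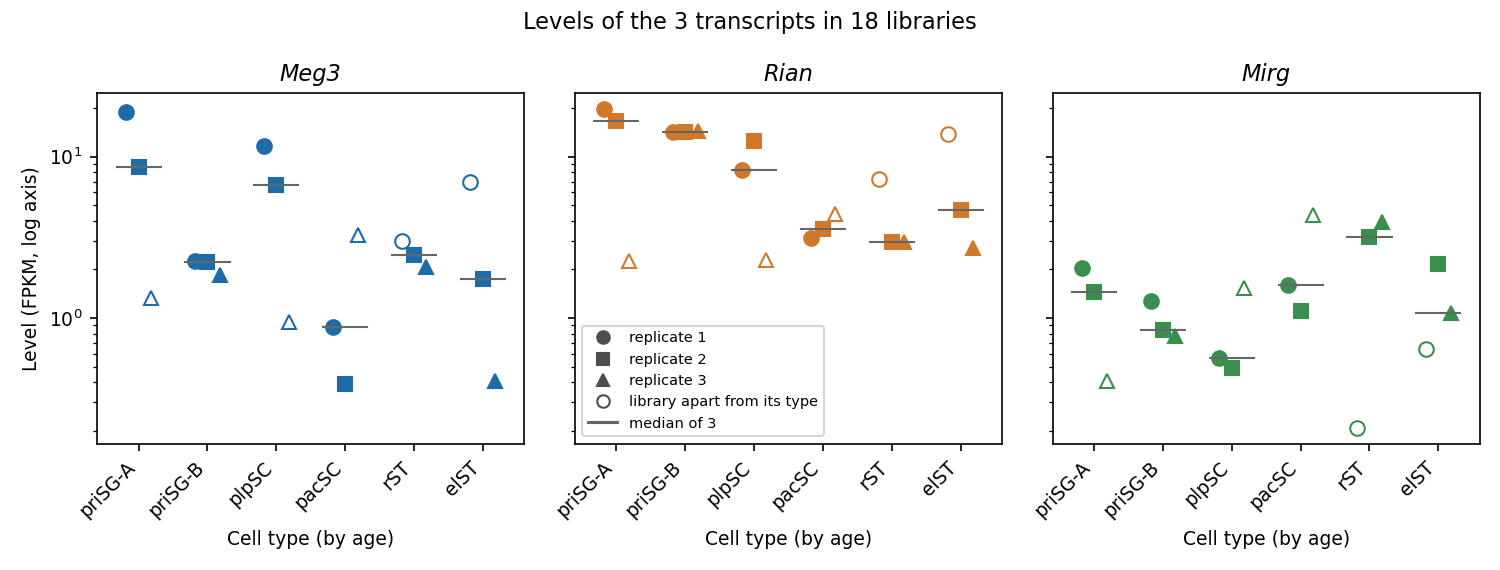
FPKM of Meg3, Rian and Mirg on a log axis (vertical) in the 18 libraries, by labelled type in order of age (horizontal). Each point is 1 library, marker shapes give the replicate, open markers are the 5 that stood apart from their label, and lines are medians of 3 libraries. Rian lay at 14.2 to 14.4 FPKM in priSG-B, while Meg3 in priSG-A ranged from 1.33 to 18.9 FPKM.

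Among the 4117 tested loci of each library, Rian ranked between the percentiles 52.4 and 97.6, Meg3 between 18.5 and 97.5, and Mirg between 19.6 and 80.2. From the lowest to the highest library Meg3 differed by 48.5-fold, Mirg by 20.9-fold and Rian by 8.64-fold. In bulk libraries such as these, fewer cells of a type and less RNA per cell cannot be told apart.

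Neighbouring ages were compared first, to ask whether the cluster changes from 1 labelled stage to the next. Levels were tested as log2(FPKM + 1), a scale that understates the change of low loci, by limma over all tested loci with adjusted p below 0.05 as the threshold. From priSG-A to priSG-B, 0 of the 3 members passed, where 0.68% of all loci did. Meg3 differed by -1.30 ± 0.86 on the log2 scale (SE), Rian by 0.53 ± 0.76 and Mirg by -0.16 ± 0.54 (limma adjusted p = 1 for each). From priSG-B to plpSC, 0 of the 3 passed, against 1.26% of all loci. The estimates were 0.89 ± 0.86 for Meg3, -1.04 ± 0.76 for Rian and -0.11 ± 0.54 for Mirg (limma adjusted p = 0.671, 0.671 and 0.914). For Rian this was the only step at which the libraries of the neighbouring types did not overlap. The share of all loci without overlap at this step was not counted.

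From plpSC to pacSC, 0 of the 3 members and 0% of all loci passed, while 650 loci had an unadjusted p below 0.05 in limma and a limma fit with neither trend nor robust estimation called 0 too. Meg3 was lower by an estimate of -1.36 ± 0.86, Rian by -0.67 ± 0.76, and Mirg had an estimate of 0.77 ± 0.54 (limma adjusted p = 0.329, 0.527 and 0.355). From pacSC to rST and from rST to elST the counts were again 0 of 3 and 0% of all loci, with 372 and 78 loci at an unadjusted p below 0.05 and 0 called by the fit with neither. The member estimates there lay between -0.40 and 0.65, with limma adjusted p from 0.791 to 0.978. An F test over the 6 types passed for none of the members, against 0.68% of all loci (limma adjusted p = 0.45 for Meg3, 0.352 for Rian and 0.672 for Mirg). Differences between types made up 32.1% of the variance of Meg3, 39.9% of that of Rian and 22.6% of that of Mirg. A permutation test of the ordinary one-way F of each member, computed without limma, with 100000 draws gave p = 0.39, 0.245 and 0.63. Adjusted over these 3, the permutation p were 0.585, 0.585 and 0.63. Shuffled type labels thus often gave shares of the variance as large as those of the members.

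The spermatid types, rST and elST, were then set against the spermatogonial types, priSG-A and priSG-B, to compare both ends of the series. Rian had an estimate of -1.12 ± 0.53 with a 95% interval from -2.26 to 0.02 (limma adjusted p = 0.112). Meg3 had -0.55 ± 0.61, with an interval from -1.85 to 0.75 (limma adjusted p = 0.441). Mirg had 0.30 ± 0.38, with an interval from -0.51 to 1.11 (limma adjusted p = 0.502), and its sign turned after quantile normalization, which gave -0.51. Thus 0 of the 3 members passed, against 0.51% of all loci. Over the 21 tests of members in all 7 comparisons, 0 had an unadjusted p below 0.05 in limma, and the fit with neither trend nor robust estimation called none of them. The lowest of these p was 0.0538, for Rian here, where 45.8% of all loci (1885) had an unadjusted p below 0.05 and Rian ranked at place 1971. The median over all tested loci was 0.55 and fell to 0.04 after quantile normalization, which gave -1.93 for Rian and -1.26 for Meg3. For Rian and Meg3 the intervals include a 2-fold lower level on this scale.

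Without the 5 libraries that stood apart, a choice made from the profiles themselves, the estimates for the spermatid types were -2.0 for Rian (limma adjusted p = 2.29e-06), -1.37 for Meg3 (0.000926) and 0.56 for Mirg (0.00779). All 3 members passed, but so did 87.6% of all loci. Meg3 was then lower in priSG-B than in priSG-A by -2.15 (limma adjusted p = 0.00709), where 10.9% of loci passed, and higher in plpSC than in priSG-B by 1.66 (0.0193), where 11.6% passed. In pacSC against plpSC, where 71.2% of loci passed, Meg3 and Rian were lower, by -2.61 (limma adjusted p = 0.000265) and -1.37 (0.00107), and Mirg was higher by 0.62 (0.0407). Mirg was then higher in rST than in pacSC by 0.96 (limma adjusted p = 0.00651), where 58.3% of loci passed, and lower in elST than in rST by -0.83 (0.0204), where 41.7% passed. The pacSC libraries left, replicates 1 and 2, had AY036118 at 7.44 and 7.25 FPKM. The priSG-B libraries had it at 23.0 to 36.2 FPKM. The priSG-A, plpSC and rST libraries left had it at 2307 FPKM or more. Type and AY036118 level therefore cannot be told apart in any step from priSG-A to rST. In elST replicate 3, which was kept, AY036118 was at 7.41 FPKM. Its r with rST replicate 2 over the tested loci was 0.61, as for pacSC replicate 1, against 0.90 for elST replicate 2. Leaving out elST replicate 1 alone put Rian past the threshold in the comparison of spermatid with spermatogonial types. The Rian estimate was then -1.40 (limma adjusted p = 0.0461). In that fit 2106 of the tested loci passed, against 21 with all libraries, so the call was not particular to Rian.

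**Figure D2:**
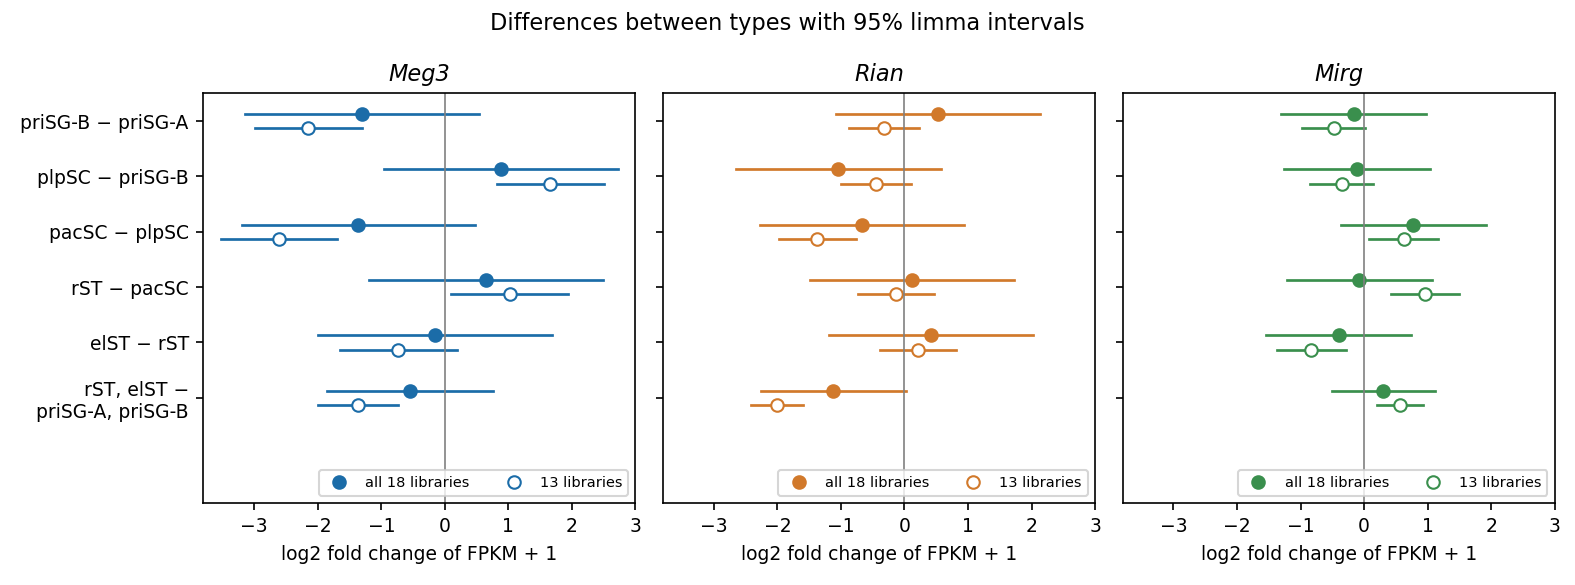
Estimated log2 fold change of FPKM + 1 (horizontal) for 6 comparisons of types (vertical), with 95% limma intervals. Filled points use all 18 libraries and open points the 13 libraries left without the 5 that stood apart. With all libraries every interval includes 0, and for Rian in the spermatid types it runs from -2.26 to 0.02.

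The members did not keep a fixed ratio to each other from library to library. A ratio of FPKM within a library does not depend on how the library was scaled. Rian exceeded Meg3 in 17 of the 18 libraries, plpSC replicate 1 being the exception. Mirg exceeded Meg3 in 8 libraries, which were all 3 of pacSC, plpSC replicate 3, and replicates 2 and 3 of rST and of elST. Mirg exceeded Rian in rST replicates 2 and 3 only. Its share of the summed FPKM of the 3 genes was 37.0% and 44.0% in those 2 libraries and 1.99% in rST replicate 1.

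**Figure D3:**
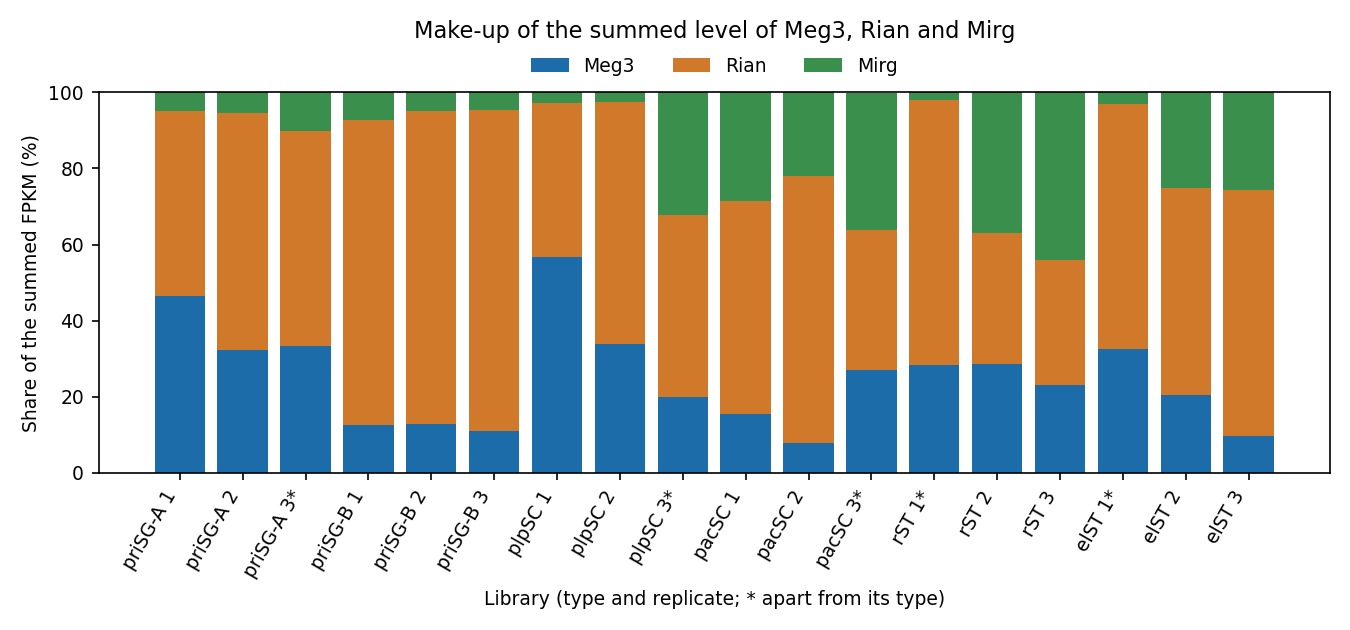
Share of the summed FPKM of the 3 genes in percent (vertical) taken by Meg3, Rian and Mirg in each of the 18 libraries (horizontal, asterisks mark the 5 that stood apart). The green Mirg share was 1.99 to 10.2% in 10 libraries and 22.0 to 44.0% in the other 8.

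Exact permutation tests (two-sided, 6 libraries against 6, chosen after the data were seen) compared the log2 ratios between the spermatid and spermatogonial types. The log2 ratio of Mirg to Rian, taken after adding 1 to each FPKM, was -1.20 ± 1.46 (SD) in the spermatid types and -2.62 ± 0.70 in the spermatogonial types, a difference of 1.42 (exact p = 0.0671, 0.201 adjusted over 3 ratios). That of Mirg to Meg3 differed by 0.85 (exact p = 0.212, adjusted 0.247) and that of Rian to Meg3 by -0.56 (exact p = 0.247, adjusted 0.247). None passed, and the smallest p that 6 against 6 can give is 0.00216. Without elST replicate 1 the Mirg to Rian difference was 1.81 (exact permutation p = 0.0173), and without rST replicate 1 it was 1.73 (0.0476). Both libraries, and priSG-A replicate 3, stood apart from their type, so a higher value without them follows in part from the choice. Adding 1 makes the tested values depend in part on scaling. With ratios of FPKM as deposited the differences were 1.59 for Mirg to Rian, 1.11 for Mirg to Meg3 and -0.48 for Rian to Meg3 (exact permutation p = 0.128, 0.29 and 0.45, not adjusted).

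The split between libraries ran along the level of 1700027A15Rik, a locus that overlaps Tnp1. Tnp1 encodes transition protein 1, which packs the DNA of spermatids, and its reads may not be separated from those of the locus. In 9 libraries this locus lay below 1 FPKM, namely priSG-A replicates 1 and 2, all of priSG-B, plpSC replicates 1 and 2, rST replicate 1 and elST replicate 1. In the other 9 it ranged from 11.8 to 4539 FPKM, and these included priSG-A replicate 3 and plpSC replicate 3. Thus rST replicate 1 carries a spermatid label and had this locus listed at 0, while priSG-A replicate 3 carries a spermatogonial label and was at 11.8 FPKM. At this locus both go against their labels. Over the tested loci rST replicate 1 had an r of 0.89 with priSG-A replicate 1 and of 0.07 with rST replicate 2. For priSG-A replicate 3 the same values were 0.56 and 0.47, so its profile was not clearly that of another type. The cause was not tested.

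Rian lay at 7.31 to 19.6 FPKM in the first 9 libraries and at 2.27 to 4.64 FPKM in the other 9, with no overlap. H19, another imprinted maternal noncoding RNA, likewise lay at 6.44 to 234 FPKM and at 0.286 to 1.45 FPKM. Meg3 overlapped, at 1.85 to 18.9 FPKM and 0.389 to 3.25 FPKM. Mirg overlapped too, at 0.209 to 2.03 FPKM and 0.407 to 4.36 FPKM, with its 5 values at the highest levels of the Tnp1 locus between 1.53 and 4.36 FPKM. The ratio of Mirg to Rian was 0.0286 to 0.103 in the first 9 libraries and 0.179 to 1.34 in the other 9. These sets are read off a measured value and are no groups of the study, so the ranges are a description, and the part of cell mixture in them was not tested. The share of all loci, or of ratios between loci, that separate along this split without overlap was not counted. The number of loci at 1 FPKM or more separated too. It was 1342 to 1695 in the first 9 libraries and 2291 to 2866 in the other 9. The median r of all tested loci with Rian over the 18 libraries was -0.62. The split is therefore one of whole libraries and is not particular to Rian or H19.

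**Figure D4:**
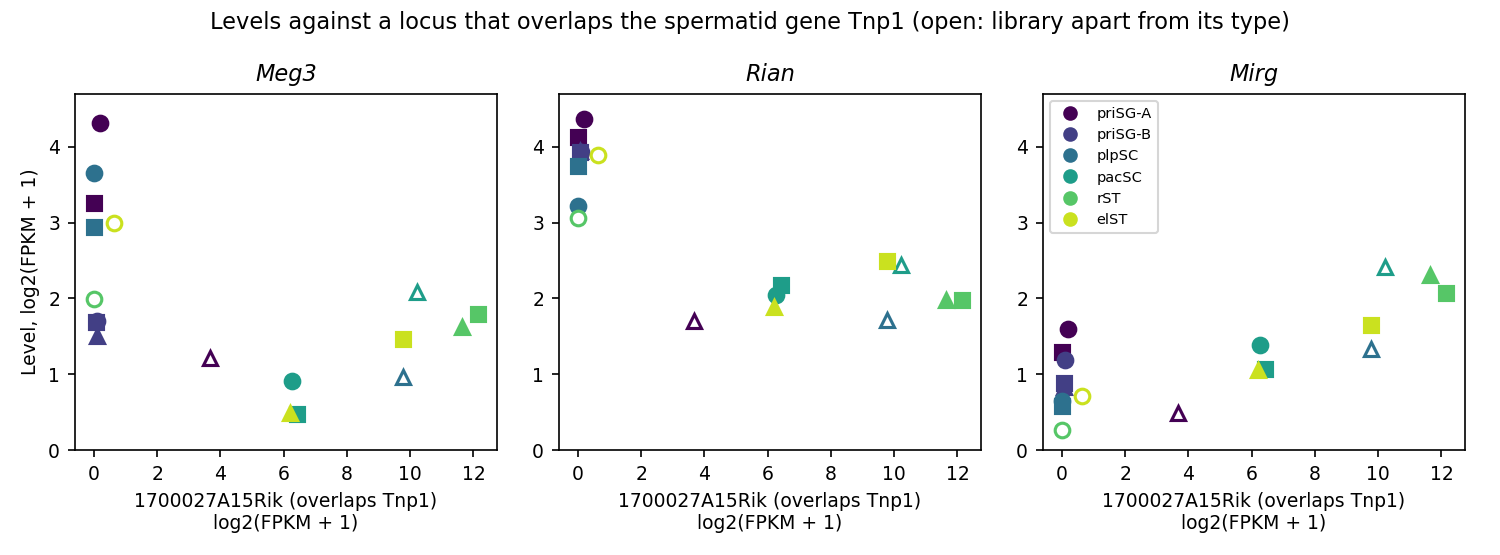
Levels of Meg3, Rian and Mirg (vertical) against the locus 1700027A15Rik that overlaps Tnp1 (horizontal), both as log2(FPKM + 1). Points are the 18 libraries, coloured by labelled type, with marker shapes for replicates as in the plot of levels and open markers for the 5 that stood apart. Rian was at or above 7.31 FPKM in every library with the Tnp1 locus below 1 FPKM and at or below 4.64 FPKM in every other. The share of all loci that separate in this way was not counted.

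Correlations between members turned with the set of libraries, and are given as descriptions over libraries that share strain, tissue and table. Over all 18 libraries on the log2 scale, Pearson's r was 0.71 for Meg3 and Rian (Spearman's rho 0.66), -0.07 for Meg3 and Mirg, and -0.31 for Rian and Mirg. Within the 9 libraries with the Tnp1 locus below 1 FPKM, Rian and Mirg had r = 0.86 (rho 0.92), and within the other 9 they had r = 0.52 (rho 0.57). For Meg3 and Mirg they were 0.38 (rho 0.20) and 0.76 (rho 0.78). For Meg3 and Rian they were 0.20 (rho 0.08) and 0.38 (rho 0.22), weak values over so few libraries. In these sets r was positive for Rian and Mirg, and over all libraries it was negative. Without the 2 libraries farthest from the Meg3 median, priSG-A replicate 1 and plpSC replicate 1, r of Meg3 and Rian was 0.70.

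The ratio of Rian to Meg3 followed another line, the AY036118 level. It was 3.58 to 9.09 in the 6 libraries with AY036118 at 7.25 to 36.2 FPKM, and 0.715 to 2.64 in the 12 libraries with AY036118 at 1998 to 13910 FPKM, with no overlap. These sets too are read off a measured value. The share of other pairs of loci whose ratio separates along this split was not counted, so it is not known whether this is particular to Rian and Meg3. The 6 libraries also had inferred fragment lengths of 234 to 268 bp and depths of 65.0 to 92.3 M fragments, against 198 to 212 bp and 31.6 to 56.6 M in the 12. All 3 priSG-B libraries are among the 6 and all priSG-A and plpSC libraries among the 12. In priSG-B the type and the kind of library therefore cannot be told apart, for Meg3 or for Rian. Within the 12 libraries, r of Meg3 and Rian was 0.90 (rho 0.90), and within the 6 it was 0.95 (rho 0.60). Of the 6, the priSG-B libraries had Meg3 at 1.85 to 2.24 and Rian at 14.2 to 14.4 FPKM. In pacSC replicates 1 and 2 and elST replicate 3, Meg3 was at 0.389 to 0.877 and Rian at 2.70 to 3.54 FPKM. The r of Meg3 and Rian over the 6 therefore rests on the gap between priSG-B and the others. Mirg had a negative r within the 12 and within the 6, with Rian -0.32 in the 12 and -0.56 in the 6, and with Meg3 -0.19 and -0.34. With the AY036118 level as a term in limma, the Meg3 estimate in priSG-B against priSG-A turned from -1.30 to 0.27 and that in plpSC against priSG-B from 0.89 to -0.68.

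Most loci around the cluster failed the filter on low values, as did most loci of the whole series. Within 1 Mb of the Meg3 start 22 loci are listed, of which 6 were tested, the members among them. The other 16 failed the filter, having never reached 1 FPKM in any library. Of all 13218 loci, 4117 passed the same filter, so a low share of tested loci is not particular to this window. Rian had the highest median level of the window, at 5.98 FPKM, followed by Gm19605 at 2.36, Meg3 at 2.24 and Mirg at 1.19 FPKM. None of the 6 tested loci passed in any of the 7 comparisons in limma, and 1 of the 42 tests had an unadjusted p below 0.05, that of Gm19605 in the spermatid types, where 45.8% of all loci did. B830012L14Rik lies between Rian and Mirg on the same strand and ranged from 0.0173 to 0.583 FPKM, highest in priSG-A replicate 1 as Meg3 and Rian were. Gm37899, also between them, ranged from 0.0051 to 0.132 FPKM with the same library highest. Farther on, Gm34719 (505.7 kb from the Meg3 start) was listed at 0 in 12 libraries and reached 3.74 FPKM in rST replicate 3, and Gm19605 (933.5 kb) ranged from 0.861 to 17.5 FPKM with its highest level in rST replicate 2. On the other side Gm34220, at -751 kb from the Meg3 start, ranged from 0.131 to 1.31 FPKM with its highest level in elST replicate 3. Dio3os, the antisense partner of Dio3 at the far end of the imprinted region, did not exceed 0.093 FPKM.

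A list of 13 other imprinted noncoding loci was set beside the cluster. Of these, 9 were in the table by symbol, on 17 rows, and 7 rows of 5 loci were tested, namely H19, Airn, Kcnq1ot1, Peg13 and 3 rows of Snhg14. In each of the 7 comparisons 0 of the 7 rows passed in limma, and 9 of the 49 tests (18.4%) had an unadjusted p below 0.05. Over all loci this share was 14.6% on average over the 7 comparisons, so the list lay near the background. In the spermatid against the spermatogonial types their median was -0.74, where all tested loci had 0.55, and 3 of the 7 rows had an unadjusted p below 0.05, against 45.8% of all loci. The median is the value of a Snhg14 row. Snhg14, the host RNA of small nucleolar RNAs in the Prader-Willi region, had estimates of -0.74 ± 0.44, 0.00 ± 0.36 and -0.83 ± 0.22 on its rows (limma adjusted p = 0.172, 0.999 and 0.0997), which are parts of 1 locus. H19 had the lowest estimate, -3.65 ± 1.03 (limma adjusted p = 0.0997), followed by Airn, the antisense RNA of Igf2r, at -0.96 ± 0.37 (limma adjusted p = 0.0997). Kcnq1ot1, the antisense RNA of Kcnq1, had -0.24 ± 0.26 and Peg13 0.10 ± 0.23 (limma adjusted p = 0.427 and 0.722). The Rian estimate of -1.12 lay between those of H19 and Airn.

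The loci most like each member were taken as the 5 with the highest Pearson's r over the 18 libraries. For Meg3 they were Gm40847 (r = 0.920), Gm16068 (0.915), Zeb2os (0.915), 4933431C10Rik (0.907) and Gm37949 (0.897). For Rian they were H19 (0.948), Gm43186 (0.938), Gm4316 (0.937), Gm49654 (0.933) and Gm4425 (0.930). For Mirg they were Gm40621 (0.883), Gm39384 (0.879), 1700119H24Rik (0.874), 5033406O09Rik (0.869) and 4930444A19Rik (0.867). No list held another member of the cluster, and Rian ranked at place 290 among the 4116 other loci by its likeness to Meg3, with Mirg at 1299. The lists were not stable, since a ranking by Spearman's rho shared 1, 0 and 3 of the 5 loci for Meg3, Rian and Mirg, and leaving out the 5 libraries that stood apart shared 0, 1 and 1. Zeb2os shares exon sequence with Zeb2 on the other strand and 4930444A19Rik with Ankrd44, so their reads may belong in part to those genes.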

How the data were processed

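Total RNA from 18 testis germ cell libraries had been extracted with Trizol and prepared with a TruSeq RNA kit, per the labels' protocols. The authors deposited 1 table of FPKM for 13218 loci, made with HISAT2, StringTie and mm10, per the submitters' processing notes, which give no versions. For the annotation, filters, strand setting and FPKM denominator, details were not given in the sources used here. Identifiers matched GENCODE M21 for 13191 loci. Values were tested as log2(FPKM + 1) for the 4117 loci that reached 1 FPKM in 3 or more libraries, with limma 3.58.1 in R 4.3.3 (trend, robust, 1 coefficient per type, two-sided, Benjamini-Hochberg over all loci tested). Tables and permutation tests used Python 3.11.15, numpy 2.4.6, pandas 2.3.3 and scipy 1.17.1, and figures matplotlib 3.10.9. The limma code and the depth estimate were tested on simulated data.

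The members and lists were chosen with earlier results of these data known. Named loci were the members, the table's loci within 1 Mb of the Meg3 start, listed imprinted loci, the 5 loci most like each member, and AY036118 and 1700027A15Rik as descriptors of libraries. Not every locus of the window is described.

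Depth was inferred from loci with 1 exon, whose low FPKM values are whole multiples of a step (97.8 to 99.1% within 0.02). It limits low values such as those of Mirg, and the values are not reads, so no count test was used. The series text speaks of duplicates, but the labels number 3 libraries per type, and all were used. Same-numbered libraries deviated together (r above 0.1 for each number) in pacSC with plpSC (0.31, 0.32 and 0.35) and in elST with rST (0.85, 0.82 and 0.13), a pairing that comes from the values and not from a label. A fit with replicate number as a block changed no call of a member. Alternatives were another pseudocount, filters, quantile normalization, limma without trend and robust estimation, the AY036118 level as a term, the types compared alone, and left-out libraries.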

Additional observations from a re-analysis of the deposited data

How the results depend on the processing

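Of 365 values of the members under alternative settings, 331 kept their direction and stayed without a call, 21 had the other direction and 14 had an adjusted p below 0.05 in limma (lowest 2.29e-06), with 1 value in both of the last sets. Mirg gave no value with a filter of 5 FPKM, which it did not pass. The cause of the changes below was not tested.

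Numbers of called loci follow in the order of the 5 neighbouring steps by age. They were 28, 52, 0, 0 and 0, with 21 for the spermatid against the spermatogonial types and 28 for the F test. A pseudocount of 0.1 left 1 and 2 in the first pair of steps, 0 for the spermatid types and 1 for the F test. Without a filter they were 76, 118, 3, 3 and 1, with 94 and 90, and with a filter of 5 FPKM they were 10 and 21 in the first pair of steps, 0 for the spermatid types and 9 for the F test. Quantile normalization gave 56 for the spermatid types and 43 for the F test. The AY036118 level as a term gave 140 in the first step, 138 for the spermatid types and 148 for the F test. Without the 5 libraries that stood apart they were 448, 477, 2932, 2401 and 1718, with 3608 and 3923. The types compared alone gave 151 and 23 in the first pair of steps and 0 for the spermatid types, and the libraries with AY036118 above 100 FPKM gave 0 for the spermatid types.

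Replicate numbers as a block (the replicate block) gave 1666 loci for the spermatid against the spermatogonial types in place of 21 and an adjusted p of 0.0619 for Rian in limma, and changed no call of a member. In the 5 steps by age 2, 4, 4, 4 and 3 of 6 libraries correlated best with their own number, so this measure does not separate the pair of steps (the third and the fifth) in which every number deviated together from the other 3.

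Mirg turned to 0.10 in priSG-B against priSG-A, 0.29 in rST against pacSC and -0.51 in the spermatid types after quantile normalization. With the AY036118 level as a term, priSG-B against priSG-A gave 0.27 for Meg3 and 0.50 for Mirg, and plpSC against priSG-B gave -0.68 for Meg3. In the same fit rST against pacSC gave -0.40 for Meg3 and -0.42 for Rian, and elST against rST gave 0.37 for Meg3. None of these values was called, and the term rests on pacSC and elST alone, which hold libraries of both levels. In the libraries with AY036118 above 100 FPKM, Meg3 in elST against rST was 0.43, and the Rian to Meg3 ratio in the spermatid types turned to 0.24.

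Without the 5 libraries that stood apart, Rian turned to -0.32 in priSG-B against priSG-A and to -0.13 in rST against pacSC, where Mirg turned to 0.96 and was called. Calls then appeared for Meg3 at -2.15 in priSG-B against priSG-A, 1.66 in plpSC against priSG-B, -2.61 in pacSC against plpSC and -1.37 in the spermatid types. They appeared for Rian at -1.37 in pacSC against plpSC and -2.0 in the spermatid types, and for Mirg at 0.62 in pacSC against plpSC, -0.83 in elST against rST and 0.56 in the spermatid types. The F test in limma then had an adjusted p of 0.000172 for Meg3, 2.54e-05 for Rian and 0.00164 for Mirg, where 95.3% of all loci passed. The ratio differences without 3 of these libraries were 1.76 for Mirg to Meg3 and 2.58 for Mirg to Rian, values that follow in part from leaving out libraries apart from their type.

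Leaving out 1 library at a time gave 14 to 22, 21 to 62, 0 to 1173, 0 to 1 and 0 to 1 called loci in the 5 steps, 1 to 2353 for the spermatid types and 9 to 81 for the F test. The 1173 arose without plpSC replicate 3, the 2353 without rST replicate 1, and 2106 without elST replicate 1. For Meg3, Rian and Mirg in this order the estimates ranged from -2.15 to -0.61, -0.32 to 1.01 and -0.48 to 0.07 in priSG-B against priSG-A, and from 0.32 to 1.66, -1.47 to -0.45 and -0.35 to 0.02 in plpSC against priSG-B. In pacSC against plpSC they ranged from -2.14 to -0.79, -1.26 to -0.24 and 0.38 to 1.05, and in rST against pacSC from 0.31 to 1.11, -0.24 to 0.30 and -0.46 to 0.56. In elST against rST they ranged from -0.82 to 0.43, -0.15 to 0.86 and -1.04 to -0.03, and in the spermatid types from -0.98 to -0.21, -1.54 to -0.88 and 0.11 to 0.62, with the call of Rian without elST replicate 1. The Mirg to Rian ratio ranged from 1.11 to 1.81. With 2 libraries of a type left, all types still share 1 estimate of spread.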
